A study of Homo sapiens with 20 samples.

Results

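Rh30 is a cell line of alveolar rhabdomyosarcoma, a soft tissue tumour of the skeletal muscle lineage, and carries the PAX3-FOXO1 fusion gene. The comparison described here sets Rh30 cells transduced with a control short hairpin RNA (shRNA) for 72 h against Rh30 cells given DMSO, the solvent of the drug arm, for 48 h. The members are 2 control hairpin arrays and 3 DMSO arrays, chosen by their titles, which makes 5 of the 20 arrays of the series and 5 of its 14 Rh30 arrays. The study as a whole asked how loss or inhibition of KDM4 demethylases, enzymes that remove methyl groups from histone H3, alters expression. Its other Rh30 groups, used below only for values side by side, are a KDM4B hairpin (72 h, 2 arrays), a control siRNA and a KDM4C siRNA (72 h, 2 arrays each) and 200 nM of the KDM4 inhibitor QC6352 (48 h, 3 arrays). Both groups compared here served as controls in that design, and setting one against the other shows how far the 2 control states of one cell line lie apart.

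The groups differ in more than the hairpin. Transduction, the vector, the hairpin itself, the solvent and the time in culture (72 h against 48 h) all change together between them and cannot be told apart. The hairpin sequence, the vector, its promoter, any selection of transduced cells and the solvent concentration are unstated in the labels. All of these cells were grown in RPMI medium. The labels call the arrays of a group biological replicates without saying whether they came from separate cultures. The p-values therefore measure only the spread between arrays of the same group, which may be technical. In the main fit that spread was pooled over all 20 arrays, including those of other treatments and of another cell line, and not taken from the compared arrays alone. Since RNA was taken from whole cultures, fewer cells of a type and less RNA per cell cannot be told apart.

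The labels of 10 Rh30 arrays contradict themselves, and the 3 DMSO arrays are among these. Their title, source name and treatment say DMSO, but the submitters' sample names are those of QC6352 replicates 2 and 3 and of control siRNA replicate 1. By sample name, DMSO would be the arrays titled control siRNA 1, control siRNA 2 and KDM4C siRNA 1. The control hairpin arrays carry no such conflict. Titles define the groups below, except that KDM4C siRNA replicate 2 is titled shRNA and was placed by its source name. Within these Rh30 groups, the SD over genes of the difference between 2 arrays was 0.214 to 0.338. By sample name it was 0.230 to 0.251 in DMSO. It was 0.615 in control siRNA (DMSO 3 and QC6352 1) and 0.248 to 0.488 in QC6352 (KDM4C siRNA 2, DMSO 1 and DMSO 2). For comparison, pairs of a DMSO and a QC6352 array by title had 0.575 to 0.618. The fit by sample name pooled its spread over all groups so defined. Which labels are right was not tested. Values by sample name stand beside the genes that passed and beside other named genes whose call or direction they change, and those of the gene lists follow the lists.

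Values are log2 signals of 17687 genes. Median signal was 6.95 and 6.97 in the control hairpin arrays and lay between 6.97 and 6.99 in the DMSO arrays, while the 4 siRNA arrays had medians of 6.72 to 6.75. Levels of 23 background control probe sets had medians of 3.90 and 4.0 with the hairpin and 3.92 to 3.98 with DMSO. The 3 arrays named DMSO by sample name are among those 4. Among markers of the skeletal muscle lineage, 8 of 10 stood over 4 times background in each hairpin array and 8 or 9 in each DMSO array, with summed levels of 14.30 to 14.32 and 14.36 to 14.39 on the log2 scale. In the same order, summed levels of blood cell markers were 9.73 to 10.08 and at least 9.73, with medians over the markers of 4.51 to 5.06 and 4.82 to 5.02, those of epithelial markers 10.86 to 10.98 and 10.84 to 11.01, those of endothelial markers 9.65 to 9.70 and 9.57 to 9.74, those of fibroblast markers 10.37 to 10.64 and 10.43 to 10.49, and those of an embryonic kidney packaging line, which is often used to make virus, 9.38 to 9.53 and 9.51 to 9.56. By summed level the 2 groups overlapped in each of these lists except the muscle list, where both hairpin arrays lay slightly lower. Medians over the muscle markers overlapped, at 10.42 to 10.52 and 10.43 to 10.51. Of 9 packaging line markers, 6 and 4 stood over 4 times background in the hairpin arrays and 7 in each DMSO array.

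Of the 3 genes that passed the test, MSMO1 and HMGCS1 act in cholesterol synthesis and SLC38A5 does not. Cells build cholesterol from acetyl-CoA through mevalonate, isoprenoid diphosphates and squalene, then trim the first ring-closed sterol, lanosterol, down to cholesterol in the endoplasmic reticulum. Transcription of these enzymes is driven by SREBP2, the product of SREBF2, which is released from the endoplasmic reticulum when membrane sterol runs low and is held there by INSIG proteins when sterol is plentiful. SREBP1, the product of SREBF1, drives mainly fatty acid synthesis. Proximal promoters of sterol genes commonly pair a sterol response element with boxes for the factors NF-Y, which reads CCAAT, and SP1, which reads GGGCGG.

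The promoters of the 2 sterol genes that passed the test are shown because they carry the boxes shared by the group. They are RefSeq windows on GRCh38.p14 of 250 bases before to 50 bases after the annotated start, printed 5′ to 3′ on the strand of the gene, with CCAAT and its reverse complement ATTGG in capitals. The MSMO1 window lies at chr4:165327419-165327718 on the plus strand. Of 2 windows of HMGCS1, the first lies at chr5:43313363-43313662 on the minus strand.
MSMO1: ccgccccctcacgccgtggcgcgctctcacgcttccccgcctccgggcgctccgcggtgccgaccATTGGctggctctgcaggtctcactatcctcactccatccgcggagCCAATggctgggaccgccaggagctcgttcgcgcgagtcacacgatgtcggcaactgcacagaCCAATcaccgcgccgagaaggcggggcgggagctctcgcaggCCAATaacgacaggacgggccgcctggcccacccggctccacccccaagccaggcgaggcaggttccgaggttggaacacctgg
HMGCS1: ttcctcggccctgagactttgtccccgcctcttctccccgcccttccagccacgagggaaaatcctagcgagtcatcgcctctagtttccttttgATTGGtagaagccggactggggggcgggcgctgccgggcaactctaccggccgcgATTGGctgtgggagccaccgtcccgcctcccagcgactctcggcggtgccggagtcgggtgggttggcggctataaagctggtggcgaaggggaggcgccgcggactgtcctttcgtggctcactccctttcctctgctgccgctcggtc
The MSMO1 window held 4 such boxes, 3 forward and 1 reverse, and the HMGCS1 window held 2, both reverse. The other HMGCS1 window and the window of SLC38A5, the only other gene that passed, held 0. Over the table, 14250 genes tested had a window, 18 of them sterol genes. CCAAT on either strand was present in 42.3% of all these genes and in 16 of the 18 sterol genes. GGGCGG was present in 65.4% of all genes and in 17 of the 18. Of 4 forms of the sterol response element searched on both strands, which overlap one another, TCACNCNAC was found in 3.45% of all genes and in FDPS, HSD17B7 and SREBF2, while TCACNCCAC (1.52% of all genes), CACCCCAC (3.86%) and ATCACNCCA (0.547%) were each found, among the sterol genes, in SREBF2 only. A match describes letters in a window, and no match says only that these letters are not in it.

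Across all genes the control hairpin and DMSO arrays lay close together. The median absolute difference was 0.097 on the log2 scale, and 95% of genes differed by less than 0.32. Single-gene differences between a hairpin and a DMSO array had an SD over genes of 0.232 to 0.278 in the 6 such pairs. The same SD was 0.280 between the 2 hairpin arrays and 0.224 to 0.251 between DMSO arrays. Pairs across the groups thus fell within the range of pairs inside them. Hairpin replicate 1 lay nearest DMSO 1 (0.232, against 0.272 and 0.278 from DMSO 2 and 3). Hairpin replicate 2 lay nearest DMSO 2 and 3 (0.233 and 0.234, against 0.265 from DMSO 1). KDM4B hairpin arrays stood at 0.366 to 0.387 from DMSO and 0.360 to 0.379 from the control hairpin, and QC6352 arrays at 0.575 to 0.618 from DMSO. The plot of distances between arrays shows these pairs.

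**Figure D1:**
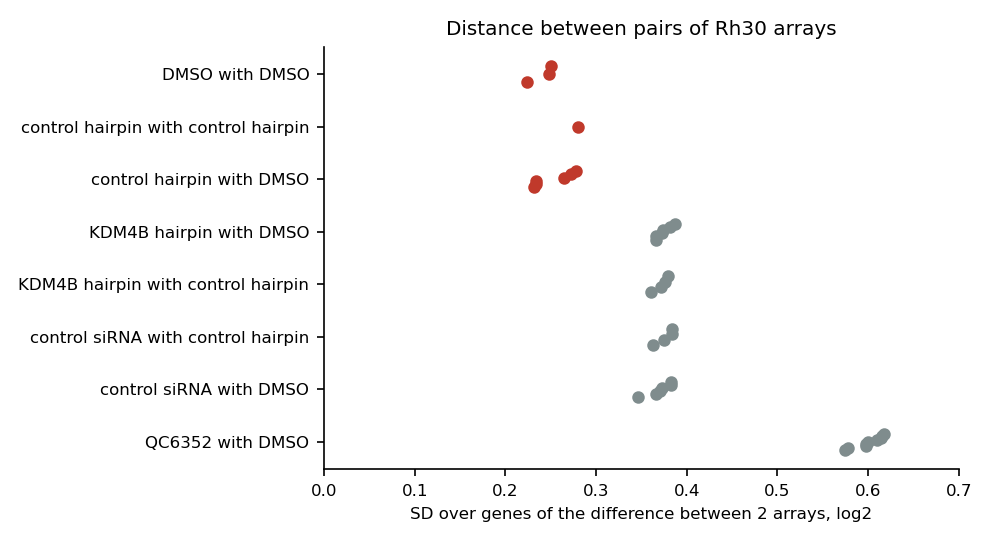
Each point is 1 pair of Rh30 arrays, grouped by title on the vertical axis, and the horizontal axis is the SD over all genes of their difference in log2 signal. Pairs of a control hairpin with a DMSO array (0.232 to 0.278) sit among the pairs within these groups, in red, and below all pairs shown with the KDM4B hairpin, the control siRNA or QC6352, in grey.

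In the fit of all 20 arrays (limma, with Benjamini-Hochberg adjustment over all genes, threshold 0.05), 3 of 17687 genes passed, 0.017% of those tested. All 3 were lower with the control hairpin, MSMO1, HMGCS1 and SLC38A5. Their calls rest on the spread pooled over all 20 arrays. With the 5 compared arrays alone 0 genes passed. The limma adjusted p was then 0.537 for MSMO1, 0.653 for HMGCS1 and 0.0632 for SLC38A5. Without adjustment 865 genes had p under 0.05, 351 higher and 514 lower. A difference of at least 2-fold was reached by 1 gene, SLC38A5, and one of at least 1.5-fold by 30. Differences had a median standard error (SE) of 0.145, and in simulated data of this design the fit found 88% of 2-fold and 45% of 1.5-fold changes, so changes near 1.5-fold could often be missed. Leaving out control hairpin replicate 1 left 0 genes past the threshold in the same test (891 at unadjusted p under 0.05), and leaving out replicate 2 left 4, of which MSMO1 was the only one of these 3. With DMSO taken by sample name, 1583 genes passed, 1444 of them higher, with the median of all genes at 0.19, and 481 passed once each array was centred on its median, MSMO1 and HMGCS1 among them in both cases.

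**Figure D2:**
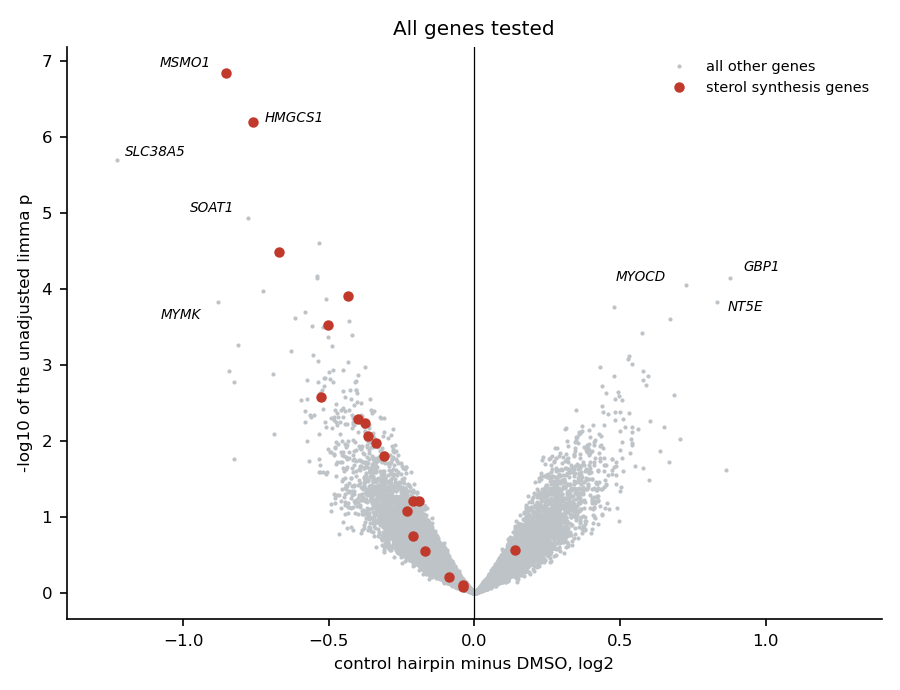
Each point is a gene, with control hairpin minus DMSO in log2 on the horizontal axis and −log10 of the unadjusted limma p on the vertical axis, and sterol synthesis genes in red. MSMO1, HMGCS1 and SLC38A5, at the top left, are the 3 genes past the adjusted threshold, and 19 of the 20 sterol genes lie left of 0.

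MSMO1, the methylsterol monooxygenase that removes the C4 methyl groups of lanosterol derivatives, stood at 9.67 and 9.78 in the control hairpin arrays and at 10.68, 10.56 and 10.50 in the DMSO arrays. It was lower in both hairpin arrays than in any DMSO array, and the groups did not overlap. The difference was −0.85 ± 0.10 (n = 2 and 3 arrays, SE from the spread pooled over 20 arrays, limma adjusted p = 0.00255). KDM4B hairpin arrays, at 10.83 and 10.81, control siRNA arrays, at 11.10 and 10.94, and QC6352 arrays, at 10.51, 10.43 and 10.40, all stood above the control hairpin arrays. With DMSO taken by sample name the difference was −1.29 (limma adjusted p = 0.000697). Without hairpin replicate 1 it was −0.80 with an adjusted p of 0.105 in limma.

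HMGCS1, the cytosolic HMG-CoA synthase that feeds the mevalonate pathway, stood at 8.58 and 8.46 with the control hairpin and at 9.39, 9.21 and 9.25 with DMSO. The groups did not overlap, and the difference was −0.76 ± 0.10 (SE; limma adjusted p = 0.00558). The KDM4B hairpin arrays lay between the groups at 8.89 and 8.88. In deposited values the control siRNA arrays, at 9.12 and 9.10, lay below DMSO and above both hairpins. Those siRNA arrays had medians over all probe sets of 6.73, against 6.97 to 6.99 with DMSO, and these levels are not centred. By sample name the difference was −0.63 (limma adjusted p = 0.0135). Leaving out either hairpin array kept its size, at −0.82 without replicate 1 and −0.70 without replicate 2, but not its call (limma adjusted p = 0.105 and 0.100).

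SLC38A5, a sodium-coupled carrier of glutamine and other neutral amino acids, stood at 5.29 in both control hairpin arrays and at 6.47, 6.49 and 6.59 with DMSO. The difference of −1.23 ± 0.18 (SE; limma adjusted p = 0.0119) was the only one past 2-fold. By mean signal SLC38A5 is among the lowest 40% of probe sets, so the fit that left these out did not test it. Here the DMSO arrays were the high ones among all Rh30 arrays, since the KDM4B hairpin gave 5.32 and 5.4, the control siRNA 5.62 and 5.45, the KDM4C siRNA 6.02 and 5.94, and QC6352 5.41, 4.54 and 5.04. The difference between the KDM4B and the control hairpin was 0.07 ± 0.20 (limma adjusted p = 0.898). By sample name SLC38A5 differed by −0.41 and did not pass (limma adjusted p = 0.322), so this call, unlike those of MSMO1 and HMGCS1, held for the titles only. It also missed the threshold without either hairpin array (limma adjusted p = 0.216 and 0.107) and without DMSO replicate 2 (0.0616) or replicate 3 (0.0935), at differences of −1.19 to −1.24.

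**Figure D3:**
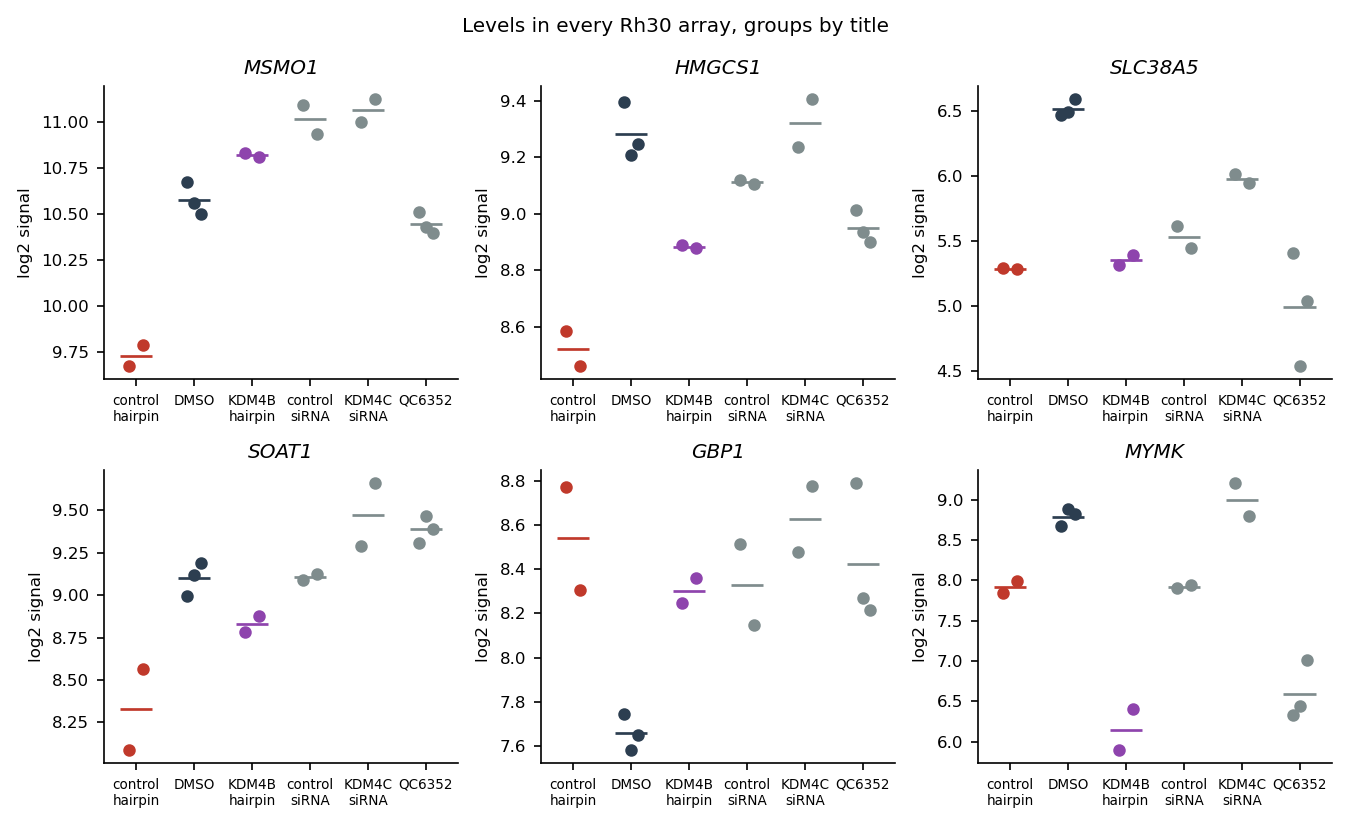
Each point is 1 Rh30 array, lines are group means, and the vertical axes give the log2 signal of 6 genes, each on its own range. MSMO1, HMGCS1 and SOAT1 are lowest in the control hairpin arrays, SLC38A5 is highest and GBP1 lowest in the DMSO arrays, and MYMK lies lowest in the KDM4B hairpin and QC6352 arrays.

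Of 25 sterol synthesis genes listed, 20 were measured here. In every array of the control hairpin 12 of the 20 were lower than in any DMSO array, against 11.1% of all genes, and 0 were higher in the same way, against 8.02% of all genes. The median difference of the list was −0.32, that of all genes −0.01, and 19 of the 20 differences were below 0. The list describes these arrays and received no test of its own, and of its members only MSMO1 and HMGCS1 passed the test over all genes. The list had a median of −0.28 when DMSO was taken by sample name, and 13 members then lay lower without overlap, against 10.3% of all genes.

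The early enzymes make mevalonate and turn it into isoprenoid diphosphates. IDI1, which isomerises isopentenyl diphosphate, stood at 9.72 and 9.78 with the hairpin and at 10.22, 10.30 and 10.23 with DMSO, a difference of −0.50 ± 0.11 (SE; limma adjusted p = 0.245). By sample name IDI1 passed at −0.53 (limma adjusted p = 0.0463). Mevalonate kinase, MVK, stood at 7.58 and 7.63 against 8.14, 8.04 and 7.83, a difference of −0.40. ACAT2, which supplies acetoacetyl-CoA, differed by −0.34 and farnesyl diphosphate synthase, FDPS, by −0.19, both without overlap. The decarboxylase MVD (−0.23) and phosphomevalonate kinase, PMVK (−0.04), overlapped between the groups. IDI1 is a member in which the KDM4B hairpin stood lower still, at 9.45 and 9.43.

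SQLE, the squalene epoxidase that commits squalene to sterols, stood at 7.51 and 7.28 with the hairpin and at 8.10, 8.06 and 8.04 with DMSO. Its difference of −0.67 ± 0.12 (SE) was the third largest of the list and did not pass (limma adjusted p = 0.0955), nor did it by sample name (−0.41, limma adjusted p = 0.0935). The KDM4B hairpin arrays, at 7.73 and 7.71, lay between the groups. Lanosterol synthase, LSS, overlapped between the groups at −0.21.

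After lanosterol, DHCR7, the reductase of the last step to cholesterol, stood at 11.22 and 11.32 with the hairpin against 11.74, 11.67 and 11.71 with DMSO. It differed by −0.43 ± 0.09 (SE; limma adjusted p = 0.177), and the KDM4B hairpin gave 11.89 and 11.90, above DMSO. By sample name DHCR7 differed by −0.38 (limma adjusted p = 0.0625), and after centring each array it passed at −0.61 (limma adjusted p = 0.0173). CYP51A1, the lanosterol demethylase, stood at 8.61 and 8.64 against 9.10, 8.94 and 8.96, a difference of −0.37. NSDHL, which acts beside MSMO1 in C4 demethylation, stood at 8.64 and 8.69 against 9.11, 8.99 and 8.98, a difference of −0.36. HSD17B7, of the same demethylation complex, differed by −0.53 but overlapped, because its hairpin arrays were apart at 7.33 and 7.90. The isomerase EBP (−0.21) did not overlap, and SC5D (−0.09) and TM7SF2 (−0.04) did.

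Among the regulators, SREBF2 stood at 9.68 and 9.74 with the hairpin and at 9.96, 10.15 and 9.94 with DMSO, a difference of −0.31 ± 0.12 (SE; limma adjusted p = 0.963). INSIG1, which retains SREBP in the endoplasmic reticulum and is itself a target of it, was the one member above 0, at 0.14 ± 0.12 with overlapping arrays. The sterol carrier STARD4 differed by −0.17 with overlap.

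The side-by-side values of the KDM4B hairpin show that the 2 hairpins did not give one profile. Against DMSO, 2721 genes (15.4%) passed with the KDM4B hairpin, and 2047 (11.6%) passed between the 2 hairpins (limma, same fit). These contrasts share the DMSO or the control hairpin arrays with the comparison described here. The median of the sterol list was −0.17 for the KDM4B hairpin against DMSO and 0.21 for the KDM4B against the control hairpin. MSMO1 passed between the hairpins (KDM4B minus control 1.09 ± 0.11, limma adjusted p = 4.06e-06) and missed the threshold against DMSO (0.24 ± 0.10, adjusted p = 0.136 in limma). HMGCS1 passed in both, at 0.36 ± 0.11 above the control hairpin (limma adjusted p = 0.0429) and −0.40 ± 0.10 below DMSO (limma adjusted p = 0.011). EBP, DHCR7 and MSMO1 were thus higher with the KDM4B hairpin than with DMSO in value, and IDI1, FDPS and SREBF2 lower.

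**Figure D4:**
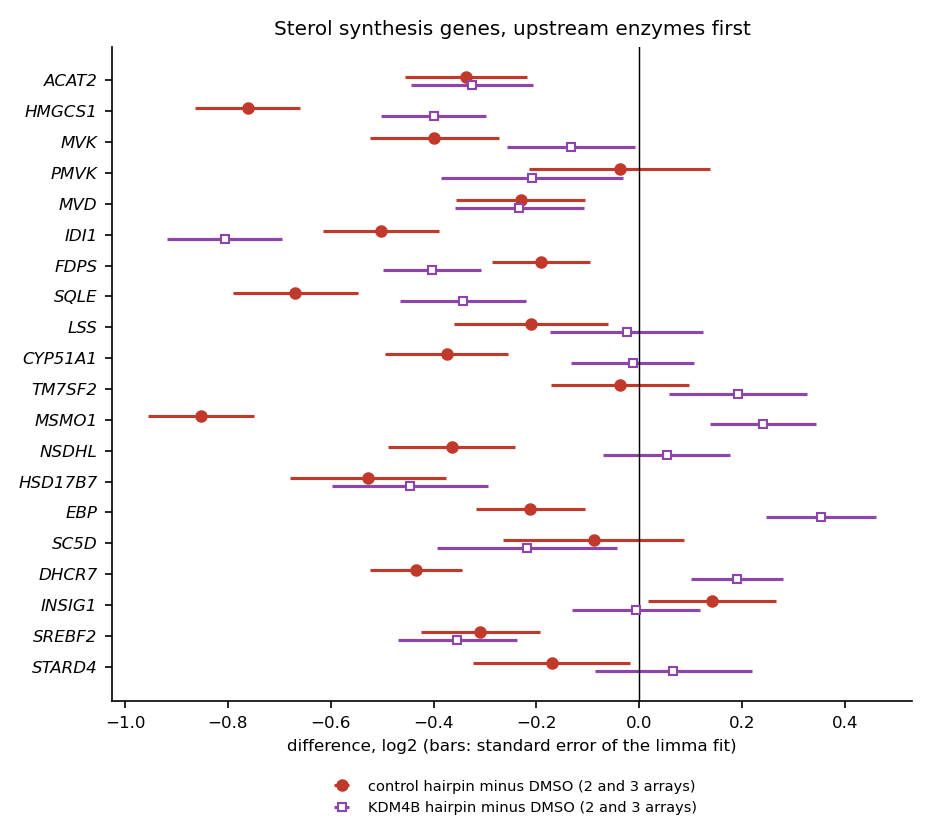
Rows are the 20 measured sterol synthesis genes, enzymes from upstream to downstream and then regulators and the carrier, and the horizontal axis is the log2 difference from DMSO with its limma SE. Red circles (control hairpin) lie below 0 for 19 genes, while open purple squares (KDM4B hairpin) lie on both sides, for example at 0.24 for MSMO1 and −0.81 for IDI1.

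Fatty acid synthesis genes had smaller differences. Of 16 measured, 5 were lower without overlap (11.1% of all genes were) and 1 was higher (8.02% were). None passed, and the median was −0.11. SREBF1 stood at 8.77 and 8.93 with the hairpin and at 9.33, 9.39 and 9.45 with DMSO, a difference of −0.54 ± 0.11 (SE; limma adjusted p = 0.142), but by sample name it differed the other way, at 0.36 (limma adjusted p = 0.347). The desaturase SCD differed by −0.38, the malic enzyme ME1 by −0.27, the elongase ELOVL6 by −0.23 and ATP citrate lyase, ACLY, by −0.22. THRSP, a lipogenic regulator of low level, differed by 0.38. SOAT1, which stores cholesterol as esters and is on neither list, was the gene next after the 3 called. It stood at 8.09 and 8.57 with the hairpin and at 9.0, 9.12 and 9.19 with DMSO, a difference of −0.78 ± 0.13 (SE; limma adjusted p = 0.0521), and by sample name it passed at −0.84 (limma adjusted p = 0.0153). LPCAT3, a phospholipid acyltransferase, differed by −0.43 (limma adjusted p = 0.235).

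Transduction and double-stranded RNA can trigger an interferon response in cells, and genes of that response were examined for this reason. Of 43 interferon-stimulated genes measured, none passed, and the median was 0.01. Without overlap 8 were higher (8.02% of all genes were) and 0 lower (11.1% were). GBP1, an interferon-induced GTPase, stood at 8.77 and 8.30 with the hairpin and at 7.74, 7.58 and 7.65 with DMSO, a difference of 0.88 ± 0.17 (SE; limma adjusted p = 0.142). KDM4B hairpin arrays, at 8.25 and 8.36, and control siRNA arrays, at 8.51 and 8.15, also stood above DMSO, and by sample name GBP1 differed by 0.16 (limma adjusted p = 0.752) and by −0.07 once arrays were centred. The other genes of the 8 differed by less, TRIM21 by 0.34, ISG15 by 0.25, BST2 by 0.23, XAF1 by 0.22, HERC5 by 0.13, OAS1 by 0.10 and DTX3L by 0.09, and ISG15 stood at 6.32 and 6.07 against 6.02, 6.0 and 5.83.

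The sensors of double-stranded RNA had the highest median of any list, 0.10 over 18 genes, with 2 higher and 0 lower without overlap, against 8.02% and 11.1% of all genes. Their largest differences were those of the factor IRF3 (0.26 ± 0.16) and the kinase IKBKE (−0.25 ± 0.11, and 0.01 by sample name), both with overlap. Of 16 genes that process small RNA, 2 were higher (8.02% of all genes were) and 3 lower (11.1% were) without overlap, led by the Argonaute AGO4 (0.31 ± 0.21) and translin, TSN (−0.24 ± 0.14). None of these passed by title. By sample name AGO4 passed at 1.19 (limma adjusted p = 0.0153), and at 0.97 after centring (limma adjusted p = 0.0424), while TSN stood at 0.03. Of 18 antigen presentation genes 1 was higher and 0 lower without overlap, against the same shares of all genes.

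The KDM4 genes, targets of the study, did not pass between these controls (limma adjusted p = 0.9996 for each of the 5). KDM4B stood at 6.74 and 7.30 with the control hairpin and at 6.63, 7.04 and 6.89 with DMSO (0.16 ± 0.21), against 6.01 and 6.15 with the KDM4B hairpin. Its difference was 0.45 without control hairpin replicate 1 and −0.12 without replicate 2. KDM4A differed by −0.05 ± 0.12 (0.05 without hairpin replicate 1) and KDM4C by 0.13 ± 0.17 (−0.02 without DMSO replicate 3, and −0.09 by sample name with centred arrays). KDM4D (−0.39 ± 0.25) and KDM4E (−0.20 ± 0.16) had levels of 4.20 to 5.18, near the background medians, and with DMSO by sample name KDM4D turned to 0.67 (limma adjusted p = 0.2) and KDM4E to 0.68 (limma adjusted p = 0.0462). Once each array was centred besides, they stood at 0.44 and 0.46 and neither passed (limma adjusted p = 0.423 and 0.145).

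Muscle genes showed values in both directions. Of 23 myogenic regulators, 5 were higher (8.02% of all genes were) and 2 lower (11.1% were) without overlap, and none passed. ID3, an inhibitor of myogenic factors, stood at 10.49 and 10.60 against 10.15, 10.25 and 10.19 (0.35 ± 0.11, limma adjusted p = 0.765), and by sample name it passed at 0.56 (limma adjusted p = 0.0274), though not after centring (0.34, limma adjusted p = 0.111). Myostatin, MSTN, differed by −0.30 ± 0.13. The determination factors MYF5 (0.25) and MYOD1 (0.11) and the differentiation factor MYOG (−0.14) did not overlap between the groups but each differed by less than 2 SE. Of 55 muscle structural genes 10 were lower and 2 higher without overlap, against 11.1% and 8.02% of all genes, among them the giant sarcomere protein TTN (−0.51), the actin-binding XIRP1 (−0.56), the calcium release channel RYR1 (−0.31) and the protease CAPN3 (0.53). MYMK, the fusogen myomaker, stood at 7.84 and 7.99 with the control hairpin and at 8.67, 8.88 and 8.82 with DMSO (−0.88 ± 0.18, limma adjusted p = 0.177). In deposited values control siRNA arrays stood level with the control hairpin for MYMK, at 7.90 and 7.94, and KDM4B hairpin arrays at 5.90 and 6.4. These levels are not centred, and the control siRNA arrays had lower medians (6.73) than the control hairpin arrays (6.95 and 6.97). By sample name MYMK differed by −0.44 (limma adjusted p = 0.562). Of 30 PAX3-FOXO1 targets 7 were lower and 4 higher without overlap, again against 11.1% and 8.02% of all genes, DCX, a microtubule protein of migrating neurons, at −0.56 and the receptor FGFR4 at −0.15.

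Growth and stress lists stayed near the median of all genes with DMSO taken by title. Over the 41 lists other than sterol synthesis and cell type markers, medians ran from −0.114 to 0.096 and 0 genes passed in this limma test. The counts without overlap that follow stand against 11.1% of all genes lower and 8.02% higher. Of 61 mitosis genes, 12 were lower and 1 higher without overlap, at small sizes such as BIRC5 (−0.20), AURKA (−0.16) and CCNB1 (−0.09). Their median was −0.03 between these controls and −0.43 for the KDM4B hairpin against DMSO. Of 24 NRF2 and glutathione genes, 6 were lower and 0 higher, led by glutathione reductase, GSR, at 8.69 and 8.76 against 9.23, 9.12 and 9.09 (−0.42 ± 0.10, limma adjusted p = 0.281). By sample name GSR passed, at −0.51 (limma adjusted p = 0.0197), and after centring at −0.74 (limma adjusted p = 0.015). Of 40 immediate early and MAPK feedback genes 9 were higher and 6 lower, EGR1 at 0.37 and JUN at 0.27 among the first and CCN1 among the second. Of 24 NF-kB targets 6 were higher and 2 lower, TRAF1, a signalling adaptor, at 0.41 and the inhibitor TNFAIP3 at 0.28. Of 45 ribosomal protein genes 5 were higher and 0 lower. Among 19 circadian clock genes the repressor NR1D2 (−0.35 ± 0.15) and the factor HLF (0.27 ± 0.20, with overlap) differed most. HLF moved with single arrays, at −0.12 without control hairpin replicate 1 and 0.66 without control hairpin replicate 2.

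**Figure D5:**
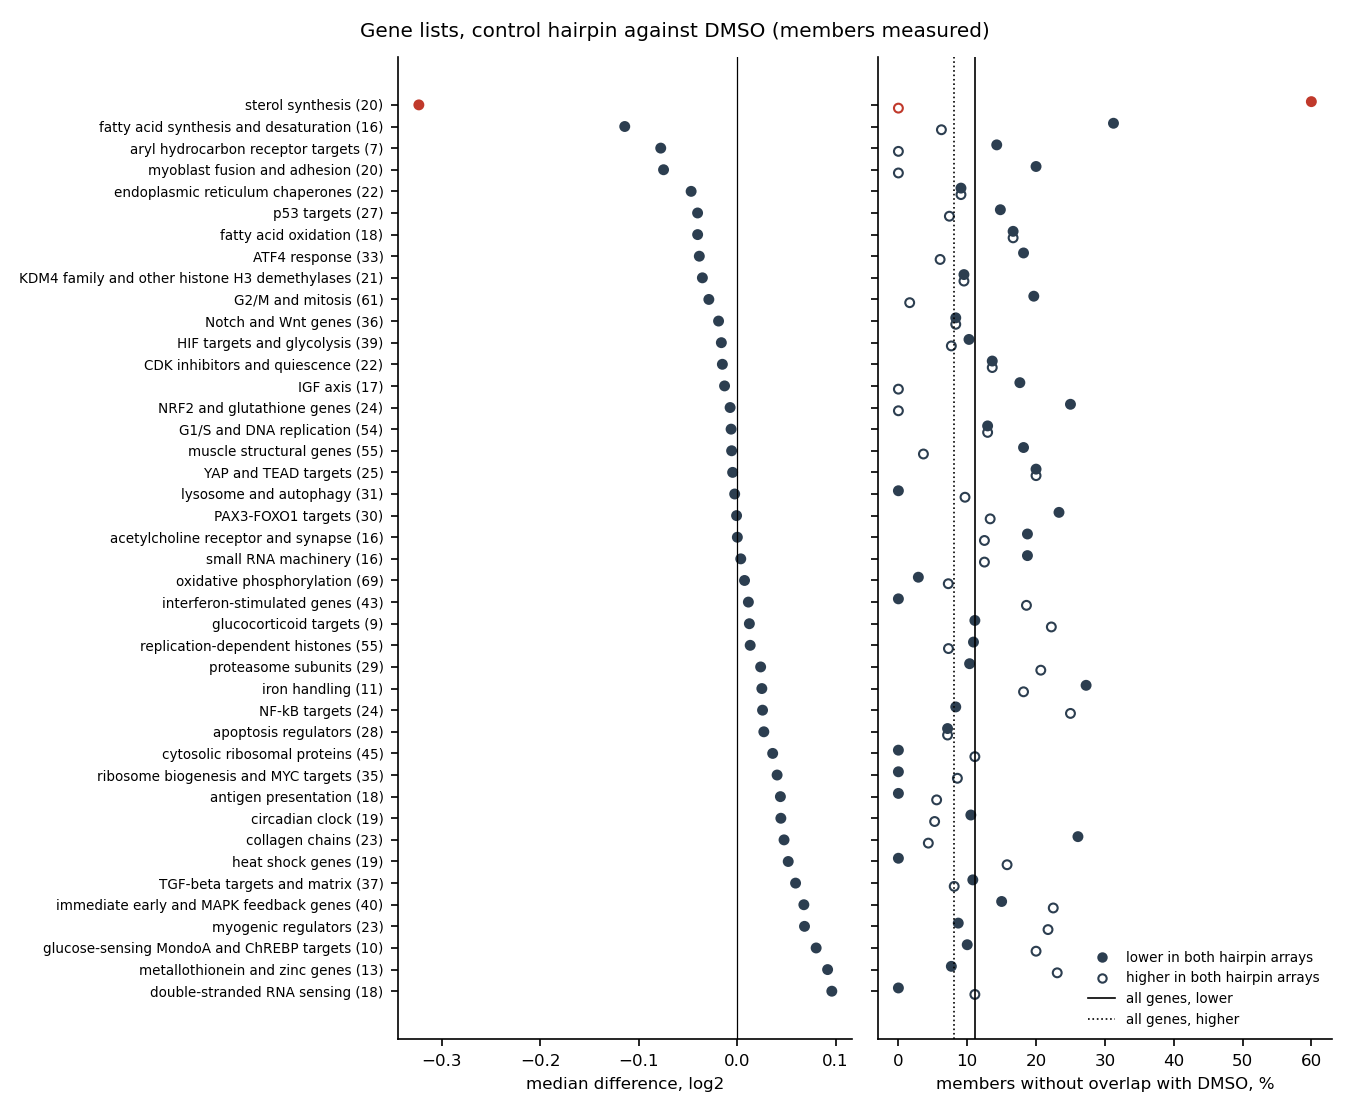
Rows are 42 gene lists with the number of measured members, ordered by median control hairpin minus DMSO difference (left, log2). The right panel gives the percentage of members lower (filled) or higher (open) in both hairpin arrays than in every DMSO array, with lines at 11.1% and 8.02% for all genes. Sterol synthesis, in red, stands at −0.32, and all other medians lie between −0.114 and 0.096.

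With DMSO taken by sample name and each array centred on its median, an alternative chosen after seeing the data, 27.1% of all genes were lower without overlap and 19.9% higher. Of the 20 sterol genes 17 were then lower and 2 higher, with a median of −0.51. Other lists also had most members lower. They included proteasome subunits (21 of 29, 0 higher), HIF targets and glycolysis (25 of 39, 3 higher), endoplasmic reticulum chaperones (14 of 22, 0 higher) and fatty acid oxidation (11 of 18, 3 higher). Before centring, 16 HIF genes, 10 chaperones, 9 proteasome genes and 3 of fatty acid oxidation were lower, against 10.3% of all genes. Of the 16 fatty acid synthesis genes 9 were lower and 3 higher after centring. Interferon-stimulated genes, of which 0 were lower by title, had 17 of 43 lower and 8 higher, and antigen presentation 8 of 18 lower and 2 higher. Of the 23 myogenic regulators 1 was lower and 11 higher, and of the 30 PAX3-FOXO1 targets 7 were lower and 11 higher. Muscle structural genes had 21 of 55 lower and 7 higher, and mitosis genes 31 of 61 lower and 6 higher. NRF2 and glutathione genes had 9 lower and 6 higher, NF-kB targets 8 and 3, immediate early genes 13 and 13, ribosomal protein genes 15 and 6, small RNA genes 3 and 3, and sensors of double-stranded RNA 5 and 1. The interferon, antigen presentation, double-stranded RNA, NF-kB and ribosomal lists thus had more members higher than lower by title and more lower than higher in this alternative. So did the oxidative phosphorylation, proteasome, lysosome, heat shock, ribosome biogenesis and metallothionein lists. All genes also had more lower than higher in this alternative (27.1% against 19.9%). Shares lower in the metallothionein (15.4%), double-stranded RNA (27.8%) and heat shock (31.6%) lists were below or near that of all genes. The other lists named here had 33.3% to 72.4% lower.

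A few more genes with small p are named after their values were seen, and none passed by title. CCN1, a matrix protein and target of the coactivator YAP, stood at 8.21 and 8.28 with the hairpin and at 8.76, 8.78 and 8.80 with DMSO (−0.53 ± 0.09, limma adjusted p = 0.087). It is on the immediate early and YAP lists, and by sample name with centred arrays it passed at −0.84 (limma adjusted p = 0.0476). NT5E, the ectonucleotidase CD73 that makes adenosine, stood at 8.86 and 8.62 against 7.97, 7.99 and 7.77 (0.83 ± 0.17, limma adjusted p = 0.177), and at 9.95 and 9.97 with the KDM4B hairpin. It is on the YAP list and differed by 0.62 by sample name. The dopamine receptor DRD2 ran the same way, at 8.53 and 8.60 against 8.12, 8.15 and 7.98, with 9.70 and 9.77 for the KDM4B hairpin. MYOCD, a coactivator of serum response factor, stood at 6.73 and 6.42 against 5.76, 5.93 and 5.86 (0.73 ± 0.14, limma adjusted p = 0.155), with 6.89 and 7.15 for the KDM4B hairpin. In NT5E, DRD2 and MYOCD the control hairpin thus lay between DMSO and the KDM4B hairpin. TRIM37, a ubiquitin ligase, stood at 7.62 and 7.71 against 8.24, 8.21 and 8.17, with 6.98 and 7.19 for the KDM4B hairpin. The Wnt receptor FZD6 ran otherwise, with 7.71 and 7.94 in the control hairpin arrays, 8.92, 8.41 and 8.58 with DMSO and 9.15 and 9.35 with the KDM4B hairpin, and by sample name with centred arrays it passed at −0.79 (limma adjusted p = 0.049).

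The 2 hairpin arrays differed from each other in some genes more than the groups did. They were at least 2-fold apart in 30 genes, against 7, 16 and 8 genes in the 3 pairs of DMSO arrays and 7 to 31 in pairs across the groups. CNTRL, a centriole protein, stood at 7.47 and 6.13 in hairpin replicates 1 and 2 and at 6.38, 5.77 and 5.66 with DMSO. PTCD3, a mitochondrial ribosome protein, stood at 8.40 and 7.26, with DMSO at 7.96, 7.35 and 7.45. SLBP, which binds the stem-loop of histone messenger RNA, stood at 9.12 and 8.05, with DMSO at 8.65, 8.37 and 8.14. RCOR2, a corepressor, ran the other way at 6.18 and 7.18, with DMSO at 6.67, 7.07 and 7.24. In these 4 genes the hairpin arrays lay as far apart as MSMO1 lay between the groups or farther, and SOAT1, at 8.09 and 8.57, and KDM4B, at 6.74 and 7.30, also differed between the 2 arrays.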

How the data were processed

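Per the labels' protocols, 125 ng of total RNA from each culture was labelled for Clariom S human arrays of Affymetrix. The authors deposited log2 values for each probe set, which were used unchanged. The submitters' processing notes name GCOS. Its version, the normalization and the build were not given in the sources used here. Of 24351 probe sets, 17709 carried 1 gene symbol, 6642 none. The brightest probe set stood for each gene, which left out 22 and gave 17687 genes. The number of arrays limits the precision.

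The test was limma 3.58.1 under R 4.3.3, with lmFit and then eBayes with no trend (20 arrays, 8 group means by title, 12 residual degrees of freedom, Benjamini-Hochberg adjustment, threshold 0.05). KDM4C siRNA replicate 2, titled shRNA, was grouped by its source name. Differences are control hairpin minus DMSO in log2. The fit was tested on simulated data (100 genes at each fold) and made 4 false calls. "Without overlap" means that every hairpin array lay on one side of every DMSO array.

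The members and the 48 gene lists, 6 of them of cell type markers, were chosen with earlier results of these data known. Of 1330 listed symbols 1193 were measured. The named-gene rule took up to 12 rises and 12 falls past the threshold without overlap, KDM4A to KDM4E, 3 called members of lists with at least 3, and the 2 largest differences in the small RNA, double-stranded RNA, interferon, myogenic and clock lists. It gave 18 genes. A further 23 with the smallest p, and list members as examples, were chosen after their values were seen. Promoters are RefSeq windows, of which SQLE and ACAT2 had none here. Alternatives changed the scaling, filter, variance model, weights, arrays fitted, block, probe sets and grouping.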

Additional observations from a re-analysis of the deposited data

How the results depend on the processing

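The count of 3 genes became 0 when tested against a fold of 1.5 (2 genes at unadjusted p under 0.05 in this limma test) and 0 with the 5 compared arrays alone (822 at unadjusted p under 0.05 in limma). It became 7 without the lowest 40% of probe sets (of 10750 genes) and 12 with trend and robust (1 higher, GBP1, and 11 lower). Taking DMSO by sample name gave 1583 genes, 1444 higher and 139 lower, with the median of all genes at 0.19, and 481 after centring each array (222 higher, 259 lower). HMGCS1 and MSMO1 remained in both. Both hairpin groups together against DMSO gave 842. Leaving out the 4 arrays titled siRNA or KDM4C gave 5. The cause of these changes was not tested. Without each array in turn, 0 to 4 genes passed. The centred sample-name grouping, the leave-out of those 4 arrays and the sterol counts were chosen after seeing the data. Same-numbered arrays deviated together at r = 0.302 and 0.148. The deviations of the 2 hairpin arrays from their mean mirror each other, so these values are not independent. They cannot show whether the numbers pair the arrays. The replicate block gave 4 genes, the 3 and SOAT1. Over all settings MSMO1 passed in 16 of 19, HMGCS1 in 15 of 19 and SLC38A5 in 10 of 18, each below 0 throughout. Sterol members lower without overlap numbered 12 to 13 where 9.65% to 11.1% of all genes did so (titles, either scaling, or sample name), 13 to 15 without each array in turn (16.5% to 31.8%) and 17 by sample name with centred arrays (27.1%). Of 770 values of the 41 named genes under alternatives, 684 kept their direction and side of the threshold, 51 newly passed, 15 no longer passed and 20 reversed. By sample name KDM4D reversed to 0.67, KDM4E to 0.68 (limma adjusted p = 0.0462), SREBF1 to 0.36, SLC29A4 to 0.26, TSN to 0.03 and IKBKE to 0.0095. With centred arrays besides, KDM4D stood at 0.44, KDM4E at 0.46 (limma adjusted p = 0.145), SREBF1 at 0.13, SLC29A4 at 0.035, KDM4C at −0.089 and GBP1 at −0.065. With both hairpin groups together, KDM4B stood at −0.31, KDM4C at −0.0064, KDM4D at 0.084 and KDM4E at 0.011. Without single arrays, KDM4A ran from −0.16 to 0.052, KDM4B from −0.12 to 0.45, KDM4C from −0.025 to 0.36 and HLF from −0.12 to 0.66. Of 816 list medians under alternatives, 102 moved by more than 1 SD.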
